A study of Mus musculus with 14 samples.

Results

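Transcripts of the 8 mouse Smad genes (Smad1, Smad2, Smad3, Smad4, Smad5, Smad6, Smad7 and Smad9) were followed in isolated colon epithelium from wild-type (WT) mice and from mice labelled as Smad4 knockout (KO), on water and after dextran sulfate sodium (DSS), a polymer that injures the colon epithelium when given in drinking water. The members were chosen by name, and all 8 of them were among the 37680 genes of the count table. The table held 14 RNA-seq libraries. They were 4 of WT on water, 4 of KO on water, 3 of WT after 3 d of 2.5% DSS and 3 of KO after the same treatment. All mice were of a C57/BL6-enriched background. The KO mice carried a tamoxifen-inducible Cre recombinase under the Villin promoter, which is active in intestinal epithelium, and floxed Smad4 alleles, so that cells other than epithelium kept Smad4. The study's treatment scheme draws tamoxifen for the KO mice only, so tamoxifen and genotype cannot be told apart where WT mice did not receive it. The sources used here do not name the floxed exon, and counts summed over a whole gene cannot show which exons the remaining reads came from.

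Smad proteins carry signals of the TGF-β family from receptors at the cell surface to the nucleus. Smad2 and Smad3 are phosphorylated by TGF-β and activin receptors and Smad1, Smad5 and Smad9 (also called Smad8) by BMP receptors, and these receptor-regulated Smads then form complexes with the common partner Smad4. Smad6 and Smad7 are inhibitory Smads that are induced by the pathway and dampen it in return, Smad6 mainly in BMP signalling and Smad7 in both branches. In the colon, BMP signalling is known to promote differentiation of epithelial cells as they leave the crypt base.

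The Smad genes lie on 5 chromosomes (build mm9, GENCODE M1 annotation). Smad1 (ENSMUSG00000031681) is at chr8:81862294-81923417, Smad3 (ENSMUSG00000032402) at chr9:63494574-63605801, Smad6 (ENSMUSG00000036867) at chr9:63800953-63869866, Smad5 (ENSMUSG00000021540) at chr13:56804371-56843738 and Smad9 (ENSMUSG00000027796) at chr3:54559504-54605179. Smad2 (ENSMUSG00000024563), Smad7 (ENSMUSG00000025880) and Smad4 (ENSMUSG00000024515) share chromosome 18, at 76401234 to 76465385, 75527183 to 75555589 and 73798663 to 73863434. No other annotated gene overlaps any of the 8.

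Total counts ran from 12882827 to 26087231 per library, and mitochondrial genes took 4.05% to 32.8% of them, with the highest shares in WT water replicates 3 and 4 and KO water replicate 4. Epithelial markers summed to between 20928 and 31790 CPM (counts in proportion to the library total, scaled by edgeR's TMM factors), and none of the 12 (Epcam, Cdh1, Krt8 and others) was at 0 throughout a group. The library labelled KO water replicate 1 went against its label, because its Smad4 level was that of WT, and the comparisons with KO water are therefore given with and without it. The study's figure legends for transcripts give 4 replicates for WT on water and 3 for KO on water. They do not name the KO library that was left out. Names of libraries begin with prefixes whose meaning the labels do not give, and these are unevenly spread over the groups: D or Z or MP in WT water, Z or MS or MP in KO water, D or ZH in WT DSS, and D alone in KO DSS. The labels number the samples but do not say whether each came from a separate mouse, so the p-values measure the spread between these libraries, which may be technical.

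Smad3 and Smad4 are known to bind the letters GTCT, or AGAC on the other strand, and with the highest affinity their palindrome GTCTAGAC. Promoter sequences (RefSeq, build GRCm38.p6, 250 bases before and 50 after the annotated start) were matched for 5 of the 8 genes, giving 7 promoters. The Smad6 promoter held the palindrome from base 247, across the start at base 251, and the other 6 promoters did not. Of all 32851 promoters of the same length, 70 (0.213%) held GTCTAGAC on either strand, and 88.0% held GTCT, which is part of the palindrome. The Smad6 promoter is shown because this letter run lies in it, and that of Smad1 because it held neither GTCTAGAC nor GTCT. Capitals mark GTCTAGAC, and both run 5′ to 3′ on the minus strand, Smad6 at chr9:64022010-64022309 and Smad1 at chr8:79399379-79399678. A match of letters is a description, and binding was not measured.
Smad6: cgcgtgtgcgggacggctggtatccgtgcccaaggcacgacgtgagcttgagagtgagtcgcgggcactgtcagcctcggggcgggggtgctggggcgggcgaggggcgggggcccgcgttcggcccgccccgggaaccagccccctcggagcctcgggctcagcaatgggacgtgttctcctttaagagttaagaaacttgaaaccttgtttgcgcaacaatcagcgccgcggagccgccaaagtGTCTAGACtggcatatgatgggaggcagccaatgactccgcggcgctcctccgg
Smad1: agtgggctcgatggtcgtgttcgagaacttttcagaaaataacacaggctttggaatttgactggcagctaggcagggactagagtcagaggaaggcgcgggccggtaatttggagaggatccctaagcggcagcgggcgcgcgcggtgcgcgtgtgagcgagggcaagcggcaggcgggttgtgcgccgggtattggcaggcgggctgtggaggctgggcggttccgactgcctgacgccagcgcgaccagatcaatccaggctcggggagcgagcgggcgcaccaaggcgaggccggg

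Smad4, the common partner and the deleted gene, was the deletion check. On water its level was 122, 159, 135 and 118 CPM in the 4 WT libraries, and 158, 37.0, 46.7 and 35.1 CPM in the KO libraries 1 to 4. KO replicates 2 to 4 lay below every WT library, while the library labelled KO water replicate 1 lay among the WT values. After DSS, Smad4 was at 170, 182 and 174 CPM in WT and at 43.9, 40.3 and 42.8 CPM in KO, with no overlap. After DSS this was a 4.15-fold lower level (log2 fold change -2.05 ± 0.09 SE, 95% interval -2.25 to -1.85, edgeR quasi-likelihood test, Benjamini-Hochberg adjusted p = 1.36e-05, 3 against 3 libraries). The log2 fold change of Smad4 after DSS lay between -2.08 and -2.02 in 16 alternative analyses, of which 14 kept the call, and the adjusted p was 0.208 with all 14 libraries in 1 model and 0.225 with a prefix block. On water the log2 fold change was -0.95 ± 0.42 SE (95% interval -1.85 to -0.04, adjusted p = 0.229, edgeR) with all 4 KO libraries and -1.75 ± 0.19 SE (95% interval -2.18 to -1.33, adjusted p = 0.00848, edgeR), or 3.37-fold lower, without replicate 1. Replicate 1 was left out because of its own Smad4 level. The fit of Smad4 without it therefore rests in part on that choice and is no independent check of the deletion. Within the prefixes that both genotypes share on water, Smad4 was at 135 CPM in the WT library and 37.0 CPM in KO replicate 2 of prefix Z, which also holds the library labelled KO water replicate 1 at 158 CPM, and at 118 CPM against 35.1 CPM for prefix MP.

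**Figure D1:**
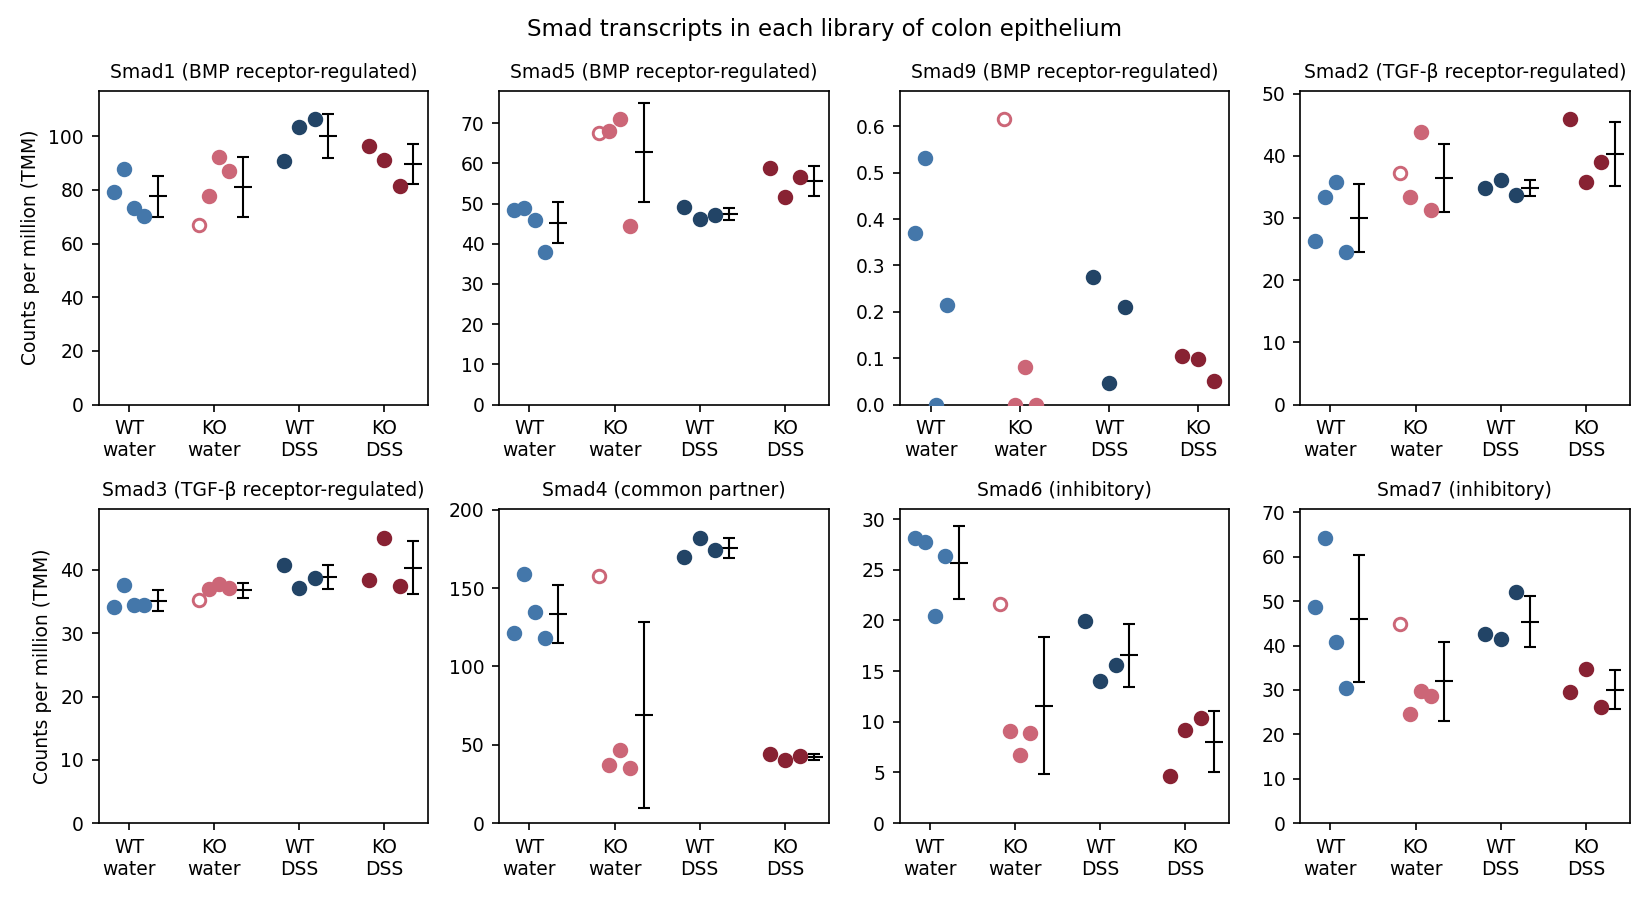
Normalized counts (CPM with TMM factors, y axes starting at 0) of the 8 Smad genes in each of the 14 libraries, by group (x axes). Filled points are libraries, the open point is the library labelled KO water replicate 1, and bars give the mean ± SD of all libraries of a group (not drawn for Smad9, whose counts were 0 to 14). Smad4, Smad6 and Smad7 sat lower in KO replicates 2 to 4 on water and in the 3 KO libraries after DSS than in WT, and the open point sat at or near the WT points of these genes.

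Among the other Smads, the inhibitory Smad6 and Smad7 stood lower in KO than in WT epithelium, both after DSS and, apart from the library labelled KO water replicate 1, on water. The receptor-regulated Smad1, Smad2 and Smad3 overlapped WT in both comparisons, and Smad5 lay above WT in 3 of 4 KO libraries on water and in all 3 after DSS. With all 4 KO libraries on water, 0 of 8 members passed an adjusted p of 0.05 by edgeR, against 0.00661% of the 15127 genes tested (1 gene, Rpl34, a ribosomal protein gene whose reads can be shared with near-identical copies). Unadjusted, 3 members (Smad4, Smad5 and Smad6) were under 0.05, as were 20.4% of genes, and DESeq2 called 1, Smad6, against 2.48% of genes that it called lower. Without replicate 1, 2 members, Smad4 and Smad6, were called lower, against 0.0862% of genes called lower, and DESeq2 called the same pair, against 2.22% of genes. Of this pair, Smad4 was the gene by whose level replicate 1 had been left out. After DSS, Smad4 alone was called lower by edgeR, against 0.423% of genes called lower, and DESeq2 called 3 members lower (Smad4, Smad6 and Smad7), against 1.98% of genes.

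Smad6, the inhibitor that acts mainly in the BMP branch, was at 28.2, 27.8, 20.4 and 26.4 CPM in WT on water and at 21.6, 9.11, 6.74 and 8.87 CPM in KO libraries 1 to 4. The 3 lower KO libraries lay below all WT libraries, and the first lay inside their range. Its log2 fold change on water was -1.15 ± 0.33 SE (95% interval -1.86 to -0.44, adjusted p = 0.157, edgeR) with all 4 KO libraries. Without replicate 1 Smad6 fell 3.12-fold (log2 fold change -1.64 ± 0.23 SE, 95% interval -2.15 to -1.14, adjusted p = 0.0267, edgeR), and the DESeq2 adjusted p was 0.0215 with all 4 KO libraries and 3.67e-08 without replicate 1. Within prefix Z the level was 20.4 CPM in WT and 9.11 CPM in KO replicate 2 but 21.6 CPM in the library labelled KO water replicate 1, and within prefix MP 26.4 CPM in WT and 8.87 CPM in KO replicate 4. In bulk RNA, fewer cells of a type that express a gene and less RNA per cell cannot be told apart.

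After DSS, Smad6 was at 20.0, 14.1 and 15.6 CPM in WT and at 4.65, 9.15 and 10.3 CPM in KO. The groups did not overlap, and KO DSS replicate 1 was the lowest of the 14 libraries, with 89 counts. The log2 fold change was -1.04 ± 0.26 SE (95% interval -1.63 to -0.44), a 2.05-fold lower level that missed the threshold in edgeR (adjusted p = 0.124) and passed it in DESeq2 (adjusted p = 0.00326). Without any filter on low counts the edgeR adjusted p was 0.0171. Of 16 alternative analyses only these 2 called Smad6. Over the 16 its log2 fold change lay between -1.26 and -0.76, with adjusted p up to 0.84. Smad6 is also known from endothelium, and the 8 endothelial markers summed to 5.28 to 7.40 CPM in WT and 5.44 to 7.15 CPM in KO after DSS, with Kdr, Emcn and Cldn5 at 0 in every library of both groups. Most of that sum was Vwf (3.86 to 5.75 CPM in WT and 4.65 to 5.38 CPM in KO), and Pecam1 was at 0.589 to 0.643 CPM in WT and 0.203 to 0.394 CPM in KO (4 to 14 counts), lower in every KO library. The part of endothelial RNA in the level of Smad6 was not tested.

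Smad7, which dampens both branches of the pathway, was at 48.6, 64.3, 40.9 and 30.5 CPM in WT on water and at 44.9, 24.5, 29.7 and 28.8 CPM in KO libraries 1 to 4. Replicates 2 to 4 lay below all WT libraries, by a small margin, since WT replicate 4 was at 30.5 CPM and KO replicate 3 at 29.7 CPM. WT replicates 3 and 4, the lower pair, were also the libraries with mitochondrial shares of 30.6% and 32.8%, and the part of this in the level of Smad7 was not tested. The log2 fold change was -0.53 ± 0.25 SE (95% interval -1.07 to 0.01, adjusted p = 0.255, edgeR) with all KO libraries and -0.74 ± 0.25 SE (95% interval -1.29 to -0.19, adjusted p = 0.203, edgeR) without replicate 1. Within prefix MP Smad7 was at 30.5 CPM in WT and 28.8 CPM in KO, and within prefix Z at 40.9 CPM in WT, 24.5 CPM in KO replicate 2 and 44.9 CPM in the library labelled KO water replicate 1.

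After DSS, Smad7 was at 42.5, 41.6 and 52.1 CPM in WT and 29.5, 34.7 and 26.1 CPM in KO. Every KO library was below every WT library. The level was 1.51-fold lower (log2 fold change -0.59 ± 0.13 SE, 95% interval -0.89 to -0.29), with an adjusted p of 0.0939 by edgeR and 0.00718 by DESeq2. Of 16 alternative analyses, DESeq2 among them, 2 called Smad7. Over the 16 its log2 fold change lay between -0.71 and -0.48, with adjusted p up to 0.999. In all, Smad4, Smad6 and Smad7 were the members with KO entirely below WT, on water without replicate 1 (7.66% of genes were so ordered) and after DSS (11.4% of genes). For Smad4 on water, replicate 1 had been left out by these same values. With all 4 KO libraries on water no member was so ordered, and 5.2% of genes were.

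**Figure D2:**
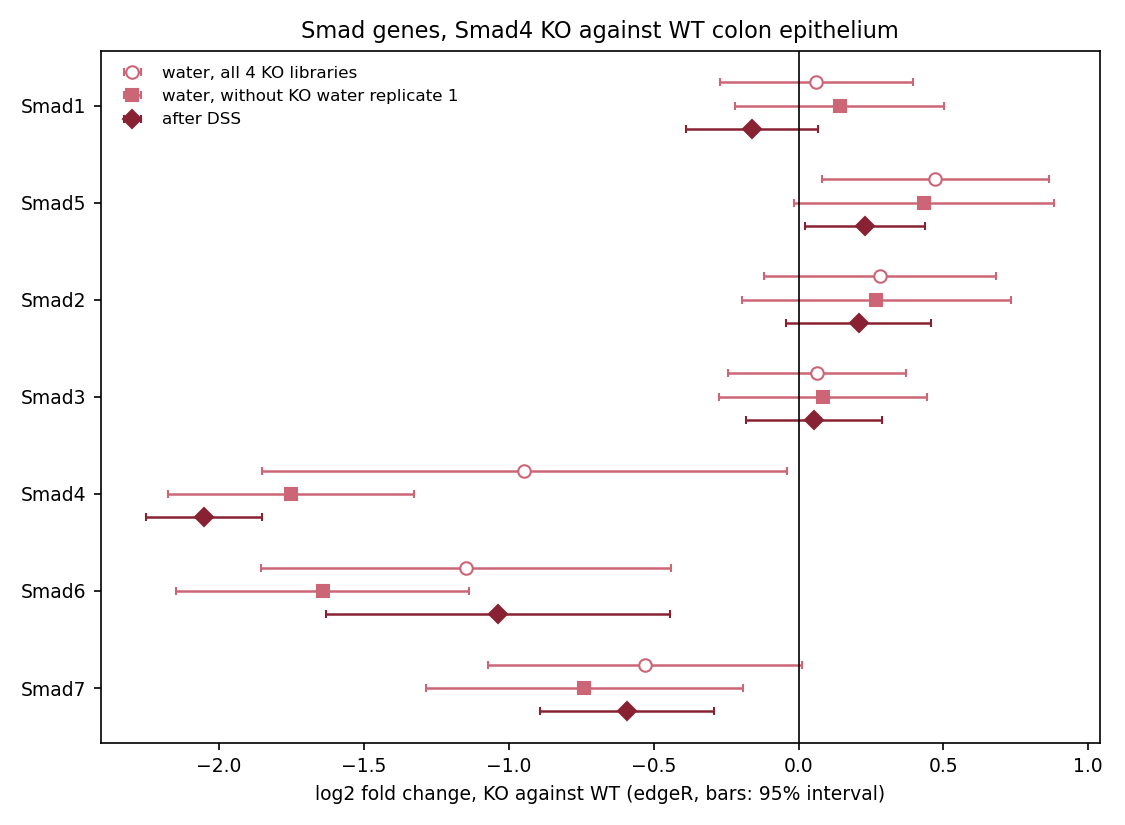
Log2 fold change of KO against WT (x axis) for the 7 Smad genes with enough counts (y axis), by edgeR, with 95% intervals as bars. Open circles are water with all 4 KO libraries, squares water without KO water replicate 1, and diamonds after DSS. The intervals of Smad6 lay below 0 in all 3 fits, that of Smad7 reached 0.01 with all 4 libraries on water, and those of Smad1, Smad2 and Smad3 spanned 0.

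Among the BMP receptor-regulated Smads, Smad5 was the member with the largest rise in fitted level, though it was not called. It was at 48.3, 48.8, 46.0 and 37.8 CPM in WT on water and at 67.6, 67.9, 71.0 and 44.5 CPM in KO libraries 1 to 4. KO replicate 4 lay within the WT range and the other 3 above it. The log2 fold change was 0.47 ± 0.18 SE (95% interval 0.08 to 0.86, adjusted p = 0.187, edgeR), and 0.43 ± 0.20 SE (95% interval -0.02 to 0.88, adjusted p = 0.291, edgeR) without replicate 1. Without KO water replicate 4, a library with 21.4% mitochondrial counts, edgeR called 1 member, Smad5. That fit called 1795 of 15043 genes, 999 of them higher. After DSS, WT stood at 49.2, 46.2 and 47.1 CPM and KO at 58.9, 51.5 and 56.6 CPM, so that every KO library lay above WT, as did 10.3% of genes. The log2 fold change after DSS was 0.23 ± 0.09 SE (95% interval 0.02 to 0.44, adjusted p = 0.284, edgeR).

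Smad1 did not differ beyond the spread between libraries. On water it was at 79.3, 87.7, 73.2 and 70.3 CPM in WT and 67.02, 77.9, 92.2 and 87.0 CPM in KO, and after DSS at 90.8, 103 and 106 CPM in WT and 96.3, 91.0 and 81.5 CPM in KO. The ranges overlapped in both comparisons. The log2 fold change was 0.06 ± 0.15 SE (95% interval -0.27 to 0.39, adjusted p = 0.849, edgeR) on water, 0.14 ± 0.16 SE (95% interval -0.22 to 0.50) without replicate 1, and -0.16 ± 0.10 SE (95% interval -0.39 to 0.07, adjusted p = 0.494, edgeR) after DSS. Smad9, the third member of this branch, was barely detected, with 10, 12, 0 and 2 counts in WT on water, 14, 0, 2 and 0 in KO on water, 6, 1 and 5 in WT after DSS and 2, 2 and 1 in KO after DSS. It passed the filter of 10 counts in 3 libraries through 3 libraries on water alone, 1 of them the library labelled KO water replicate 1, and no fold change is given for so few counts.

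The TGF-β receptor-regulated Smad2 and Smad3 were also within the spread between libraries. Smad2 was at 26.3, 33.4, 35.7 and 24.5 CPM in WT and 37.3, 33.4, 43.7 and 31.3 CPM in KO on water, and at 34.8, 36.1 and 33.6 CPM in WT and 45.9, 35.8 and 39.0 CPM in KO after DSS. Its log2 fold change was 0.28 ± 0.18 SE (95% interval -0.12 to 0.68, adjusted p = 0.405, edgeR) on water, 0.27 ± 0.21 SE without replicate 1 and 0.21 ± 0.11 SE (95% interval -0.04 to 0.46, adjusted p = 0.416, edgeR) after DSS. KO and WT overlapped each time, and each of these intervals includes no change.

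Smad3 was the steadiest member on water, at 34.1, 37.7, 34.4 and 34.4 CPM in WT and 35.2, 36.9, 37.9 and 37.1 CPM in KO. After DSS it was at 40.8, 37.2 and 38.7 CPM in WT and 38.4, 45.1 and 37.5 CPM in KO. The fitted log2 fold change was 0.06 ± 0.14 SE (95% interval -0.24 to 0.37) on water, 0.08 ± 0.16 SE without replicate 1 and 0.05 ± 0.11 SE (95% interval -0.18 to 0.29) after DSS. With and without replicate 1, the intervals of Smad1, Smad2 and Smad3 on water stayed between -0.28 and 0.73, and after DSS between -0.39 and 0.46.

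Levels were then compared between genes as RPKM, which divides CPM by the exon length of each gene in kilobases. In WT on water Smad4 led at 35.9 ± 5.00 RPKM (SD, n = 4), followed by Smad1 at 13.4 ± 1.32, Smad7 at 10.2 ± 3.15, Smad2 at 8.45 ± 1.53, Smad6 at 8.19 ± 1.15, Smad3 at 6.35 ± 0.30, Smad5 at 6.09 ± 0.68 and Smad9 at 0.052 ± 0.042 RPKM. In that order the ranges of neighbours did not overlap at Smad4 over Smad1 and at Smad5 over Smad9, and those of the other neighbours did, although within each of the 4 libraries Smad1 also exceeded Smad7 and Smad6 exceeded Smad3. In KO water replicates 2 to 4, Smad1 led at 14.7 ± 1.25 RPKM (SD, n = 3), above Smad4 at 10.7 ± 1.69, and Smad6 was next to last at 2.63 ± 0.42, with Smad2, Smad5, Smad3 and Smad7 between them at 10.2, 8.24, 6.73 and 6.12 RPKM. With replicate 1 included, Smad4 led the KO water group at 18.6 ± 16.0 RPKM (SD, n = 4), ahead of Smad1 at 13.9 ± 1.90, and Smad6 was at 3.69 ± 2.16.

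After DSS the order in WT again began with Smad4 at 47.3 ± 1.65 and Smad1 at 17.2 ± 1.42 RPKM (SD, n = 3), and in KO with Smad1 at 15.4 ± 1.30, Smad4 at 11.4 ± 0.48 and Smad2 at 11.3 ± 1.45 RPKM. Smad4 and Smad2 overlapped in KO after DSS, and Smad6 was at 5.28 ± 0.98 RPKM in WT and 2.57 ± 0.96 in KO. Levels per length depend on the annotated exons, which may not all be used in colon epithelium.

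Summed over the 8 genes, the Smad pool was 88.6 ± 11.1 RPKM (SD, n = 4) in WT on water, 59.3 ± 5.80 (n = 3) in KO water replicates 2 to 4 and 97.0 in the library labelled KO water replicate 1. After DSS it was 103 ± 1.84 RPKM in WT and 62.2 ± 2.13 in KO (n = 3 each). Smad4 made up 40.5% ± 1.74 of the pool in WT on water and 17.9% ± 1.04 in KO replicates 2 to 4, and 45.9% ± 1.31 and 18.4% ± 0.88 after DSS. With Smad4 left out the pool overlapped between the genotypes on water, at 52.7 ± 6.50 RPKM in WT and 48.6 ± 4.11 in KO replicates 2 to 4, and was 55.8 ± 1.63 in WT and 50.8 ± 2.06 in KO after DSS, where the libraries did not overlap.

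Within the rest of the pool, the ratio of inhibitory Smads (Smad6 and Smad7) to receptor-regulated Smads (Smad1, Smad2, Smad3, Smad5 and Smad9) was 0.443 to 0.608 in the WT libraries on water and 0.196 to 0.252 in KO replicates 2 to 4, with 0.447 in the library labelled KO water replicate 1. After DSS it was 0.335 to 0.401 in WT and 0.181 to 0.259 in KO. The KO values on water and after DSS covered about the same range, and neither overlapped WT once replicate 1 was left out. These sums were formed from genes already described and are given without a test.

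**Figure D3:**
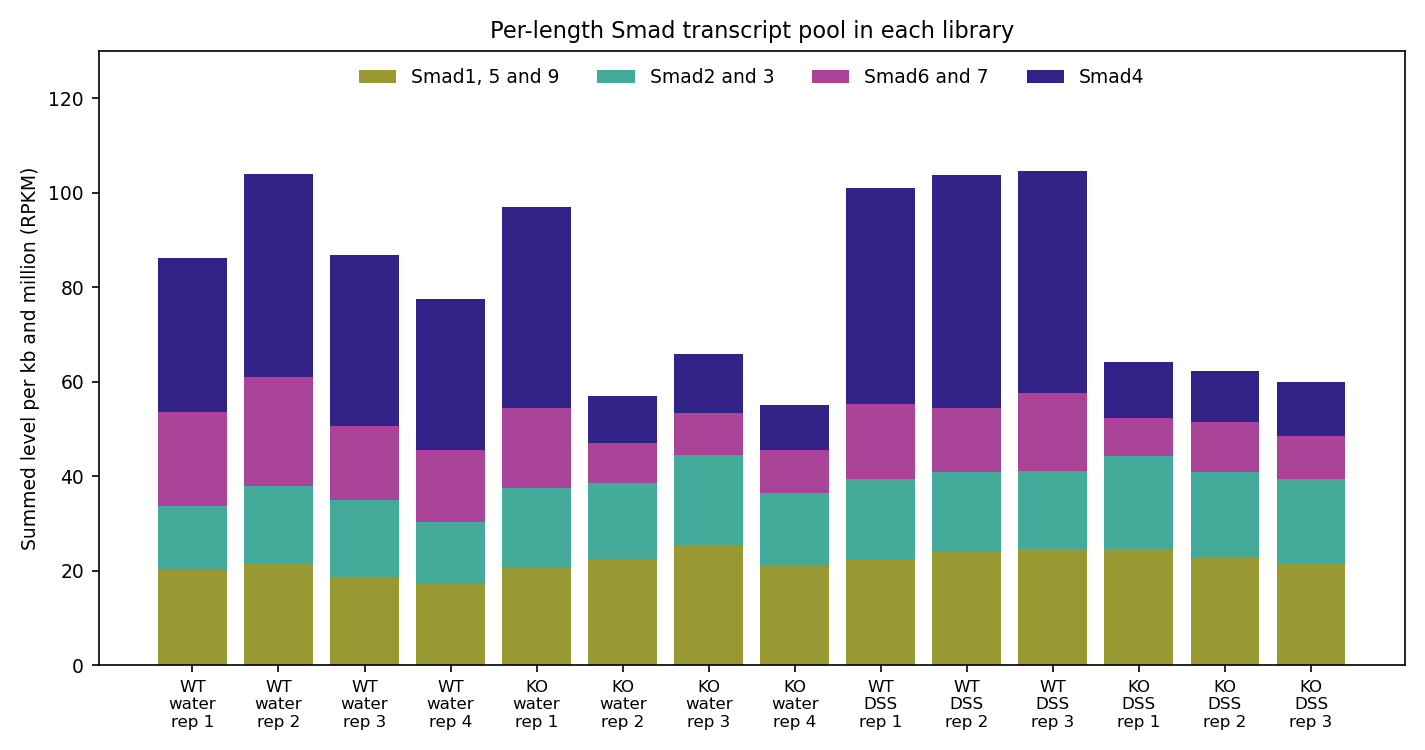
Summed RPKM (y axis, from 0) of the 8 Smad genes in each of the 14 libraries (x axis), stacked by class. The Smad4 block took 40.5% of the pool in WT on water on average and 17.9% in KO water replicates 2 to 4, and the pool of the library labelled KO water replicate 1 was 97.0 RPKM, within the WT range.

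The response to 3 d of DSS was described in each genotype. In WT epithelium no member was called by edgeR, nor was any of the 15127 genes (0% called, 3663 at an unadjusted p under 0.05). Of the members, 3 had an unadjusted p under 0.05, as did 24.2% of genes, and DESeq2 called 2 of them, Smad4 (adjusted p = 0.0481) and Smad6 (adjusted p = 0.0172), where it called 11.7% of genes. Smad6 was lower in all 3 DSS libraries than in all 4 on water (log2 fold change -0.64 ± 0.18 SE, 95% interval -1.04 to -0.24, adjusted p = 0.0997, edgeR), as were 11.6% of genes. Smad4 (0.40 ± 0.13 SE, 95% interval 0.11 to 0.69, adjusted p = 0.121, edgeR) and Smad1 (0.37 ± 0.12 SE, 95% interval 0.09 to 0.64, adjusted p = 0.127, edgeR) were higher in all DSS libraries, as were 12.8% of genes. Among WT libraries of prefix D, Smad6 was at 28.2 and 27.8 CPM on water and 20.0 and 14.1 CPM after DSS, Smad4 at 122 and 159 against 170 and 182 CPM, and Smad1 at 79.3 and 87.7 against 90.8 and 103 CPM.

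In KO epithelium no member was called after DSS by edgeR or DESeq2, none had an unadjusted p under 0.05 by either, with or without replicate 1, and the ranges on water and after DSS overlapped for all 8, where edgeR called 0.00661% of genes, DESeq2 0.469%, and 8.88% of genes did not overlap. For Smad6 the log2 fold change was -0.53 ± 0.42 SE with all KO libraries and -0.03 ± 0.32 SE (95% interval -0.76 to 0.70) without replicate 1. For Smad4 it was -0.71 ± 0.48 SE with all and 0.10 ± 0.17 SE (95% interval -0.30 to 0.49) without. KO libraries on water and after DSS shared no name prefix, so prefix and treatment cannot be told apart there.

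The difference between the DSS responses of KO and WT was tested as an interaction. No member was called, with 0.00661% of genes called by edgeR and 0 members at an unadjusted p under 0.05. DESeq2 called 0 members, 1 of them (Smad4) with an unadjusted p under 0.05, and 0.0529% of genes. Without replicate 1 both tools called 0 members, and none had an unadjusted p under 0.05. For Smad6 the difference was 0.11 ± 0.48 SE on the log2 scale (95% interval -0.92 to 1.14, adjusted p = 0.955, edgeR) with all libraries, and 0.61 ± 0.36 SE (95% interval -0.16 to 1.38, adjusted p = 0.652, edgeR) without replicate 1, so that a DSS response of Smad6 particular to WT was not shown. For Smad4 it was -1.11 ± 0.55 SE (adjusted p = 0.645, edgeR) and -0.30 ± 0.20 SE (adjusted p = 0.678, edgeR).

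**Figure D4:**
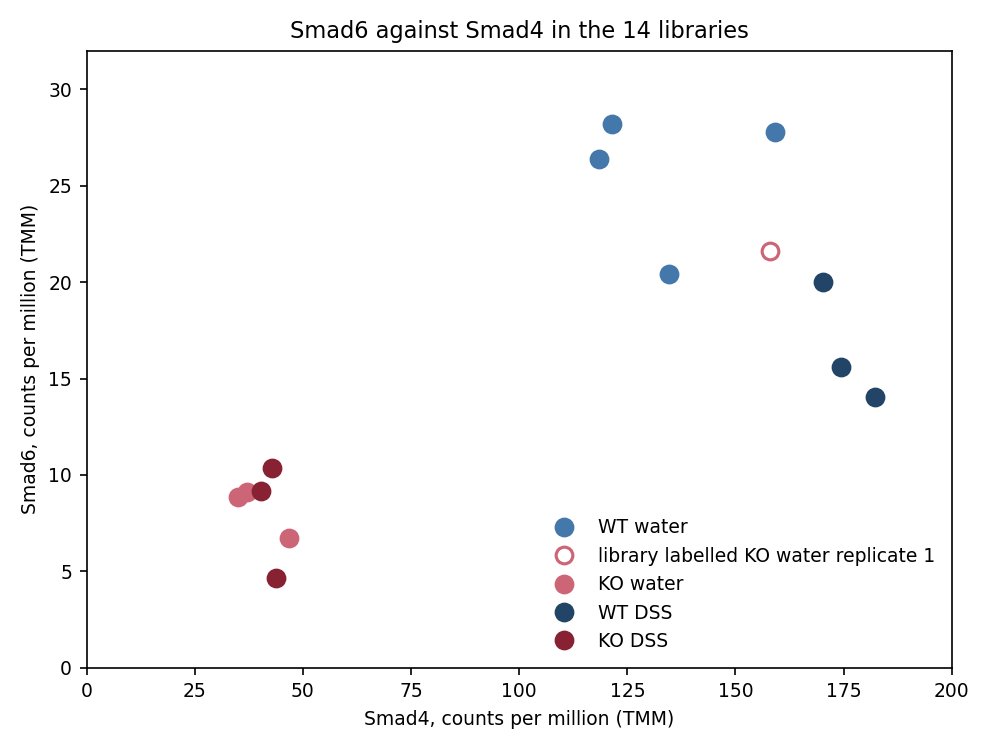
Smad6 against Smad4 in each of the 14 libraries, both in CPM (linear axes from 0), coloured by group. The KO libraries other than the open point formed a group at 35.1 to 46.7 CPM of Smad4 and 4.65 to 10.3 CPM of Smad6, and the open point, the library labelled KO water replicate 1, lay among the WT libraries at 158 and 21.6 CPM.

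Apart from the library labelled KO water replicate 1, the libraries in the plot of Smad6 against Smad4 were set apart by genotype. For this reason no correlation is given over them. Within the WT libraries the DSS libraries had the highest Smad4 and the lowest Smad6, 14.1 to 20.0 CPM against 20.4 to 28.2 CPM on water.

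Other genes of the pathway were described from 3 lists. Of 14 listed receptors of the TGF-β family, 12 were tested, and none was called by edgeR or DESeq2 in KO against WT on water, with or without replicate 1, or after DSS. Unadjusted, 5 receptors on water (4 without replicate 1) and 2 after DSS were under 0.05 by edgeR, where 20.4%, 18% and 15.3% of all genes were. Their median log2 fold change was 0.39 on water, 0.42 without replicate 1 and 0.05 after DSS, beside -0.01, -0.01 and 0.00 over all genes tested. Of 28 regulators and cofactors of Smads, such as ubiquitin ligases and co-repressors, 25 were tested and none was called by edgeR in either comparison. By unadjusted p (edgeR), 10 were under 0.05 on water, 7 without replicate 1 and 5 after DSS. These are 40%, 28% and 20% of the list, beside 20.4%, 18% and 15.3% of all genes. DESeq2 called 6 on water, 3 without replicate 1 and 2 after DSS, where it called 5.08%, 4.11% and 3.3% of all genes. The median of this list was 0.18, 0.21 and 0.03.

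Some genes stood both in the list of regulators and in that of targets, so the counts of these lists are not separate. Of 20 listed target genes, which include Smad6 and Smad7 themselves, 16 were tested. With all KO libraries on water edgeR called 0, with 7 (43.8%) at an unadjusted p under 0.05 beside 20.4% of all genes. Without replicate 1 it called 3 lower (Id3, Id1 and Smad6). In these fits it called 0.00661% and 0.0862% of all genes. After DSS it called 3 lower (Id3, Id1 and Cdkn1a) and none higher, where it called 0.754% of all genes. DESeq2 called 3 targets on water (1 higher, 2 lower), 7 without replicate 1 (1 higher, 6 lower) and 7 after DSS (all lower). It called 5.08%, 4.11% and 3.3% of all genes in these fits. The medians were -0.28 on water, -0.25 without replicate 1 and -0.49 after DSS.

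Id1 and Id3 encode inhibitors of helix-loop-helix transcription factors and are textbook targets of BMP signalling. Id3 was at 72.3 to 120 CPM in WT on water, at 61.8 CPM in the library labelled KO water replicate 1 and at 0.238, 1.97 and 4.11 CPM in KO replicates 2 to 4. After DSS Id3 was at 52.1, 40.2 and 62.6 CPM in WT and 2.09, 2.51 and 7.05 CPM in KO (log2 fold change -3.73 ± 0.38 SE, adjusted p = 0.00405, edgeR). On water without replicate 1 its log2 fold change was -5.49 ± 0.62 SE (adjusted p = 0.00848, edgeR).

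Id1 was at 277 to 454 CPM in WT on water, 302 CPM in the library labelled KO water replicate 1 and 47.8, 72.7 and 91.2 CPM in replicates 2 to 4 (log2 fold change without replicate 1 -2.33 ± 0.27 SE, adjusted p = 0.00848, edgeR). After DSS the difference for Id1 was -1.46 ± 0.12 SE (adjusted p = 0.00177, edgeR). The library labelled KO water replicate 1 was thus within the WT range on water for Smad3, Smad4, Smad6, Smad7 and Id1. It was below that range for Smad1 and Id3. It was above it for Smad2, Smad5 and Smad9, the last with few counts. For the co-repressor gene Skil, chosen after its values were seen, it was also above that range, at 72.0 CPM. Skil was at 24.6 to 48.9 CPM in WT and 67.7 to 101 CPM in KO replicates 2 to 4. Cdkn1a, which encodes the cell cycle inhibitor p21, was at 151, 136 and 173 CPM in WT and 55.6, 63.4 and 65.9 CPM in KO after DSS (log2 fold change -1.32 ± 0.11 SE, adjusted p = 0.00216, edgeR).

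The genes whose levels ran most like those of each Smad over the 14 libraries were taken among 11578 genes with a mean of at least 50 normalized counts. For Smad4 they were Fcgbp (Pearson r = 0.950), Id1 (0.914) and Sema6a (0.913), for Smad6 Pdzd7 (0.926), Acer1 (0.915) and Arl3 (0.914), and for Smad7 Aldh2 (0.910) and Fuz (0.902). For Smad5 they were Pja2 (0.958), Tlk1 (0.945) and Lims1 (0.938), for Smad2 Gm9892 (0.949), Ints12 (0.917) and Taf1b (0.907), for Smad1 Mat2a (0.901), Pik3c2b (0.874) and Tnfrsf1a (0.854), and for Smad3 Pdgfrb (0.877), Dnajc16 (0.831) and Trio (0.817). The values share libraries, depth and group differences and are a description, and without KO water replicate 1 they lay between 0.818 and 0.961. By rank (Spearman) they lay between 0.622 (Smad4 and Id1) and 0.956 (Smad5 and Lims1), with Smad4 and Sema6a at 0.754 and Smad2 and Taf1b at 0.732. Smad9 had too few counts for its likeness to be read.

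Markers of other cell types were low beside the epithelial ones but did not stay level between groups. The 10 fibroblast markers summed to 13.02 to 26.0 CPM in WT and 16.6 to 42.4 CPM in KO on water, and to 12.5 to 15.7 CPM in WT and 18.8 to 26.5 CPM in KO after DSS, where 3 of the 7 tested, the collagen genes Col1a1, Col1a2 and Col3a1, were called higher in KO (edgeR) at no more than 2.66 CPM. In each group no more than 1 of the 10 was at 0 in every library. Their part in the Smad values was not tested. Over all libraries the 6 smooth muscle markers summed to 11.9 to 22.3 CPM, mostly Tagln (10.9 to 19.4 CPM). The 8 myeloid markers summed to 95.1 to 221 CPM, mostly Cd14 (86.7 to 205 CPM). The 8 lymphoid summed to 4.88 to 34.9 CPM and the 8 endothelial to 4.53 to 12.5 CPM. Of the smooth muscle, myeloid, lymphoid, endothelial and epithelial markers, edgeR called 2 after DSS and none on water with or without replicate 1. The myeloid S100a8 was higher in KO (log2 fold change 3.21 ± 0.41 SE, adjusted p = 0.01, edgeR). Krt20, a keratin of differentiated colonocytes, was lower in KO (-0.86 ± 0.14 SE, adjusted p = 0.0302, edgeR). The markers named here were chosen after their values were seen.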

How the data were processed

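Colon epithelium was released from the whole colon with EDTA, and polyadenylated RNA was sequenced. According to the study's methods and the labels, the authors aligned cleaned paired-end reads to mm9 with HISAT2 and counted them per gene with featureCounts. The deposited values are whole-number counts without normalization, with 37680 genes and 14 columns, and 14001 genes had no count in any library.

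The 15127 genes that reached 10 counts in 3 or more libraries were tested two-sided in edgeR 4.0.16 (R 4.3.3) with TMM factors and the quasi-likelihood test. Each comparison used the libraries of its 2 groups, and the interaction used all 14. P-values were adjusted by Benjamini-Hochberg over all genes tested, with a threshold of 0.05. Without KO water replicate 1 the filter left 15074 genes. Standard errors came from the quasi-likelihood F statistic. RPKM used the union of exons of GENCODE M1. Likeness used log2 CPM with a prior count of 2.

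Alternatives were DESeq2 1.42.0, 1 model of all libraries, RLE factors or library totals, no filter or 50 counts, blocks of replicate number or name prefix, and each library left out. Combinations of leaving out KO water replicate 1 with another choice, and prefix D alone after DSS, were added after seeing the data. The scripts were tested on simulated data. The 8 genes and the gene lists were chosen with earlier results of these data known. Genes named are the members, list genes past the threshold (up to 5 in each direction), the 3 genes most like each member, and markers needed to state a range. Of these, 1 gene is not reported here. Counting error alone is small for all members but Smad9, and the number of libraries sets the precision.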

Additional observations from a re-analysis of the deposited data

Results flagged for a closer look

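In 4 to 10 libraries of a group, a single library that stood far from the others was looked for by Dixon's test, for the 8 Smad genes in the 2 groups of 4 libraries (16 sets). This marked 5 sets, where chance marks about 5% of such sets on average. The genes were measured in the same libraries, so the sets are not independent and the 5 are not separate findings. Of the 5 marked sets, 3 were the library labelled KO water replicate 1. It stood far above the other KO libraries on water for Smad4 (158 CPM), Smad6 (21.6 CPM) and Smad9 (0.616 CPM, from 14 counts). Smad5 was far lower in KO water replicate 4 (44.5 CPM) than in the other 3 KO libraries, and that library also had 21.4% mitochondrial counts. Smad3 was higher in WT water replicate 2 (37.7 CPM) than in the other WT libraries, which lay within 34.1 to 34.4 CPM. The causes were not tested.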

How the results depend on the processing

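The number of members called in KO against WT on water went from 0 to 1 (Smad6) with DESeq2, with all 14 libraries in 1 model and with a replicate block, and lay between 0 and 2 when 1 library was left out. It was 2 without KO water replicate 1 (Smad4 and Smad6) and 1 without KO water replicate 4 (Smad5). Those fits called 13 of 15074 and 1795 of 15043 genes. Without KO water replicate 1 the number of members called was also 2 with DESeq2, a replicate block, a prefix block or RLE factors (620, 28, 2612 and 14 of 15074 genes called). It was 3 with the other 13 libraries in 1 model, which added Smad7 (1154 genes called). With library totals it was 0 (7 genes called, adjusted p = 0.132 for Smad4 and 0.161 for Smad6, edgeR). After DSS it went from 1 to 3 with DESeq2 or no filter, and to 0 with all 14 libraries in 1 model or with the prefix block, where the fold change of Smad4 stayed at -2.05 and -2.06. For DSS against water in WT it was 2 with DESeq2. It stayed at 0 under all alternatives for DSS against water in KO and for the interaction. The causes were not tested.

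Some directions turned among values that were not called. For Smad4, DSS against water in KO became 0.097 (DESeq2), 0.081 (prefix block), 0.090 (RLE), 0.14 (library totals) and 0.095 (1 model) without KO water replicate 1, and ran from -0.93 to 0.095 over the libraries left out. For Smad6 it became 0.31 with a replicate block and 0.046 with library totals, both without that library. The interaction for Smad6 became -0.071 with library totals and -0.17 with a prefix block, and ran from -0.11 to 0.61 over the libraries left out. Over the libraries left out, Smad1 on water ran from -0.0073 to 0.14 and Smad3 after DSS from -0.035 to 0.10. Over all 22 alternatives Smad1 on water reached 0.33.

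The labels do not say whether equal replicate numbers mark pairs of libraries. Correlations of same-numbered libraries ran from -0.02 to 0.35 on water and from -0.08 to -0.05 after DSS. On water 1 of 4 was above 0.1, that of replicate 4, where both libraries are of prefix MP. So few pairs cannot settle the question. The replicate block gave 1 called member on water and moved the genes called from 1 to 473 there and from 114 to 57 after DSS, and in WT after DSS from 0 to 54.

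Over all genes, the count called on water was 768 with DESeq2, 1276 in 1 model, 2018 with the prefix block and 51 without a filter. After DSS the 114 genes (50 higher, 64 lower) became 499, 2, 1 and 340, and 39 within prefix D. For DSS against water DESeq2 called 1777 in WT, where no filter gave 435, and 71 in KO, where 1 model gave 10 in place of 1. For the interaction DESeq2 called 8 in place of 1.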
